A study of Rattus norvegicus with 10 samples.

Results

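The comparison described here sets arthritic rats after 34 days of saline placebo (group PLA_34d) against arthritic rats sampled before any therapy (group RA_0), in RNA-seq profiles of muscle. A transcript was a member of the comparison when it reached at least 1 CPM (reads per 1e+06 reads of the library, scaled between libraries) in both libraries of either group. Of 17221 transcripts in the table, 9966 (57.9%), carrying 9837 gene symbols, were members, and they made up 97.1% of the 10259 transcripts tested across the series. Among the members, 9322 reached that level in both groups, 424 in PLA_34d alone and 220 in RA_0 alone.

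All animals were female Wistar rats in which arthritis had been induced by collagen, a protocol where type II collagen given with adjuvant raises an immune attack on the joints as in rheumatoid arthritis (RA), and RA_0 carried the arthritis as PLA_34d did. PLA rats served as control for a methotrexate arm and had sterile saline injected into the peritoneum once a week. The tissue, labelled muscle beneath the epidermis and weighing under 500 mg per the labels, was cut out around the points used for acupuncture when the animals were killed, so that the time points come from different animals. The series holds 10 libraries in 5 groups of 2, the other 3 groups being acupuncture at 1 h (AP_1h) and 34 days (AP_34d) and placebo at 1 h (PLA_1h). Whether a library came from 1 animal or from a pool is not given in the sources used here, nor is the age of the rats. The p-values below therefore measure only the spread between these samples, which may be technical in part. PLA_34d rats were older and further into the disease than RA_0 rats, and the passage of time, the disease and the injections cannot be told apart.

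Skeletal muscle is built of slow fibres, which work aerobically, and fast fibres, which rely more on glycolysis, and each kind makes its own set of myosins, troponins and other contractile proteins. Between the fibres lie tendon and connective tissue cells, vessels, fat and a few resident immune cells, and lymph nodes lie under the skin close to some muscles. Muscle also holds a circadian clock, in which BMAL1 (the product of *Arntl*) and CLOCK switch on *Nr1d1*, *Dbp* and the *Per* genes, while the *Nr1d1* product, REV-ERBα, represses *Arntl* in turn.

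The 4 compared libraries held 5371687 and 6115093 counted reads in RA_0 and 6817140 and 7364001 in PLA_34d, so that a count of 0 allows up to 0.716, 0.446, 0.337 and 0.426 CPM (3 reads, counting error only). Values of a group are given throughout in the order replicate 1, replicate 2. Across transcripts, PLA_34d replicate 2 correlated with RA_0 replicates 1 and 2 with Pearson's r of 0.962 and 0.972, whereas PLA_34d replicate 1 correlated with them with r of 0.888 and 0.924 and with its own group's replicate 2 with r of 0.916. These values describe the libraries only, since transcripts are not independent replicates. PLA_34d replicate 1 carried lymphoid transcripts at high levels. Summed over a list of B cell genes, its level was 556 CPM, against 14.9 CPM in PLA_34d replicate 2, 13.8 and 10.7 CPM in RA_0 and 9.26 to 23.4 CPM in the other 6 libraries. For a list of T cell genes the sums were 521 CPM against 17.9, then 13.1 and 14.3 CPM, with 13 to 52.2 CPM elsewhere. Each result is therefore given for both PLA_34d libraries apart.

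No transcript passed a Benjamini-Hochberg adjusted p of 0.05 in the limma fit over all transcripts (0 of 10259, 0% called), and the smallest adjusted p was 0.914. At an unadjusted p under 0.05 stood 328 of the transcripts tested, 317 of them members. Limma-voom and edgeR's quasi-likelihood test also made 0 calls (218 and 496 transcripts at an unadjusted p under 0.05), while DESeq2 made 38 (552 unadjusted). Every transcript named below that was tested had a limma adjusted p between 0.914 and 0.987, and a few named transcripts were too low to be members and had no test, so the text gives levels and differences, and no gene is said to have changed.

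The study's own rule asks for 3 things together, which are an unadjusted p under 0.05, a mean of 1 CPM or more over the 4 libraries, and a 2-fold or larger difference. The study applied its rule to limma-voom, with a filter of its own. Here the rule was applied to the limma fit, with the fold taken on the log2(CPM + 1) scale. Under the rule as applied here 192 members were higher in PLA_34d (1.93% of members) and 45 were lower (0.452%). Of the 192, 74 passed the filter in 1 group only, as did 11 of the 45, and for these the filter favoured a difference. Higher members made up 81% of the 237. With quantile normalization the split was 171 higher and 91 lower, and in limma-voom it was 103 higher and 53 lower. The higher group leaned on 1 library: in 174 of its 192 members PLA_34d replicate 1 lay farther from the RA_0 mean than replicate 2 did, and in 108 the PLA_34d libraries differed from each other by at least 1 log2 unit. Over all members the median distance from the RA_0 mean was also larger in replicate 1 (0.469 log2 units) than in replicate 2 (0.24). The PLA_34d libraries differed there by a median of 0.438. Of the 45 lower members, 25 lay farther in replicate 1, and 4 had libraries at least 1 log2 unit apart. Without PLA_34d replicate 1 the rule met 35 higher and 104 lower, and without replicate 2 it met 761 higher and 202 lower. Leaving out RA_0 replicate 1 gave 34 higher and 55 lower, and leaving out RA_0 replicate 2 gave 294 higher and 229 lower.

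Taken library by library, both PLA_34d libraries lay above both RA_0 libraries for 1693 members (17%) and below both for 1439 (14.4%). A gap of at least 1 log2 unit between the groups was rarer, with 37 members higher (0.371%) and 7 lower (0.0702%). Both PLA_34d libraries lay above all 8 other libraries of the series for 210 members (2.11%) and below all 8 for 215 (2.16%). PLA_34d replicate 1 stood at least 1 log2 unit above the higher RA_0 library for 763 members (7.66%) and as far below the lower one for 104 (1.04%). For PLA_34d replicate 2 these counts were 70 (0.702%) and 106 (1.06%). The median size of the difference from the RA_0 mean was 0.469 log2 units in replicate 1 and 0.24 in replicate 2, beside a median difference of 0.386 between the RA_0 replicates themselves. Both PLA_34d libraries share the RA_0 mean as their reference, so their differences are not independent of each other.

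**Figure D1:**
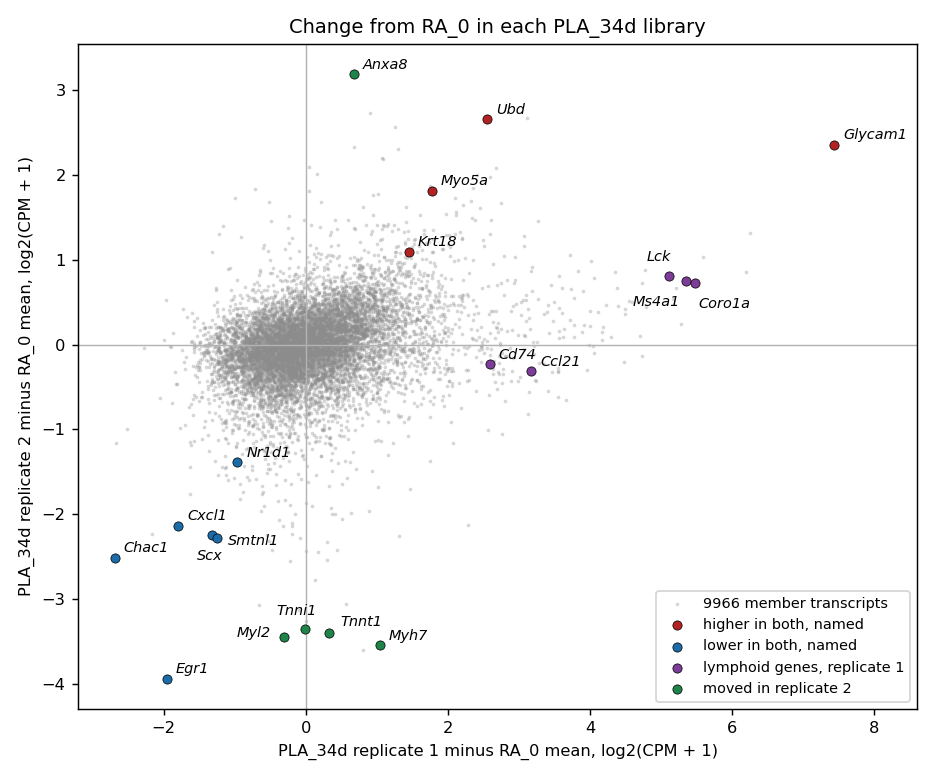
Difference of each PLA_34d library from the RA_0 mean, in log2(CPM + 1), with replicate 1 on the x axis and replicate 2 on the y axis and each grey point 1 of the 9966 members; named transcripts are coloured. *Ubd* and *Chac1* lie near the diagonal, lymphoid genes such as *Ms4a1* lie far to the right near the x axis, and slow fibre genes such as *Tnni1* lie far down near the y axis.

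*Ubd* had the smallest p of the comparison and was high in both PLA_34d libraries. It encodes FAT10, a ubiquitin-like protein that interferon gamma and tumour necrosis factor induce and that marks proteins for the proteasome. *Ubd* (NM_053299, rn4 chr20:1475948-1477895, minus strand) stood at 2.62 and 3.86 CPM in RA_0 and at 23.7 and 25.4 CPM in PLA_34d. The groups did not overlap, and PLA_34d replicate 2 held as much *Ubd* as replicate 1. The difference was 2.61 ± 0.49 (SE) on the log2(CPM + 1) scale, with an unadjusted p of 0.00032 and an adjusted p of 0.914 in limma, and with an adjusted p of 0.00655 in DESeq2. In the other 6 libraries *Ubd* ranged from 1.79 to 32.8 CPM, with 28.6 and 32.8 CPM in PLA_1h, so the PLA_34d level lay inside the span of the series. Of the 35 transcripts that DESeq2 called higher, *Ubd* was the only 1 whose replicate 2 also lay at least 1 log2 unit above RA_0.

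Other interferon-responsive genes did not all go with *Ubd*. Of 26 members of an interferon response list, 5 were higher and 2 lower in both PLA_34d libraries, beside 17% and 14.4% over all members. The median difference was 0.10 beside -0.02 over all members. *Igtp*, an interferon-inducible GTPase, stood at 12.4 and 17.5 CPM in RA_0 and at 26.8 and 33 CPM in PLA_34d, without overlap. *Ifi47*, of the same GTPase family, stood at 7.16 and 6.53 CPM against 24.3 and 10.7 CPM. *Ifit3*, a target of type I interferon that limits viral RNA, went the other way, at 6.68 and 12.2 CPM in RA_0 and 3.03 and 6.4 CPM in PLA_34d. *Irf7*, the factor that amplifies the type I response, overlapped between the groups, at 19.6 and 10.8 CPM against 16 and 10.7 CPM.

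Genes of peptide presentation by class I molecules were higher mostly in replicate 1. The class I molecule *RT1-CE10* stood at 15.5 and 19.8 CPM in RA_0 and at 46.3 and 29.6 CPM in PLA_34d, a difference of 1.04 ± 0.32. *RT1-CE13*, a near copy of other class I genes that also overlaps *RT1-CE14*, stood at 2.15 and 7.13 CPM against 19.6 and 9.38 CPM, and how its reads were divided among these copies is uncertain. *Psmb8*, a subunit of the immunoproteasome that cuts peptides for class I molecules, stood at 8.83 and 6.98 CPM against 39.6 and 8.67 CPM. Of 10 members of the class I peptide pathway list, 4 were higher in both PLA_34d libraries and none was lower in both, beside 17% and 14.4% over all members, and the median difference was 0.89 in replicate 1 and 0.11 in replicate 2. In bulk tissue, fewer cells of a type and less RNA per cell cannot be told apart, here and in all that follows.

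Beyond the immune genes, the members with the smallest p among those higher in both libraries covered several functions. *Myo5a*, a myosin motor that carries vesicles along actin, stood at 4.29 and 7.43 CPM in RA_0 and at 21.9 and 22.5 CPM in PLA_34d, above the 4.88 to 14.9 CPM of the other 6 libraries. Its difference was 1.79 ± 0.47, with an unadjusted p of 0.00348 in limma. *Arid5b*, a DNA-binding transcriptional coregulator, stood at 6.68 and 10.4 CPM against 25.6 and 15.1 CPM, and *Ino80d*, a subunit of the INO80 chromatin remodeller, at 0.716 and 1.93 CPM against 14 and 6.11 CPM. *Krt18*, a keratin of simple epithelia, and *Ccna2*, the cyclin of S phase, were near the floor of RA_0, at 0.239 and 0.297 CPM each. They reached 2.47 and 1.71 CPM (*Krt18*) and 2.02 and 1.71 CPM (*Ccna2*) in PLA_34d. *Ccnb1*, the mitotic cyclin, had 0.239 and 0.446 CPM against 1.91 and 1.42 CPM. Of 9 members of the cell division list 3 were higher and 0 lower in both libraries, beside 17% and 14.4% over all members. The list held 2 members that passed the filter through PLA_34d alone. Its median difference was 0.34 in replicate 1 and -0.15 in replicate 2. The uncharacterised transcripts *LOC500625* (0 and 0.297 CPM against 4.26 and 2.56 CPM) and *RGD1562351* (2.86 and 6.53 CPM against 17.8 and 9.52 CPM), the latter overlapping *Grm3*, were also among the 12. *Ino80d*, *Krt18*, *Ccna2*, *Ccnb1* and *LOC500625* passed the filter through PLA_34d alone, which favoured a higher level there.

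*Glycam1* belongs here by rule, but its size rested on replicate 1. It encodes a mucin-like glycoprotein made by the high endothelial venules of lymph nodes. *Glycam1* (NM_012794, rn4 chr7:142455642-142457902, minus strand) had no read in RA_0 or in the other 6 libraries, and its PLA_34d levels were 172 CPM in replicate 1 and 4.12 CPM, or 29 reads, in replicate 2. Against the 0.716 CPM that a count of 0 allows in RA_0 replicate 1, these levels were at least 240-fold and 5.76-fold higher. Summed over 6 genes of mammary secretion, the level was 0.112 CPM in PLA_34d replicate 1 and 0 CPM in the other 3 compared libraries.

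**Figure D2:**
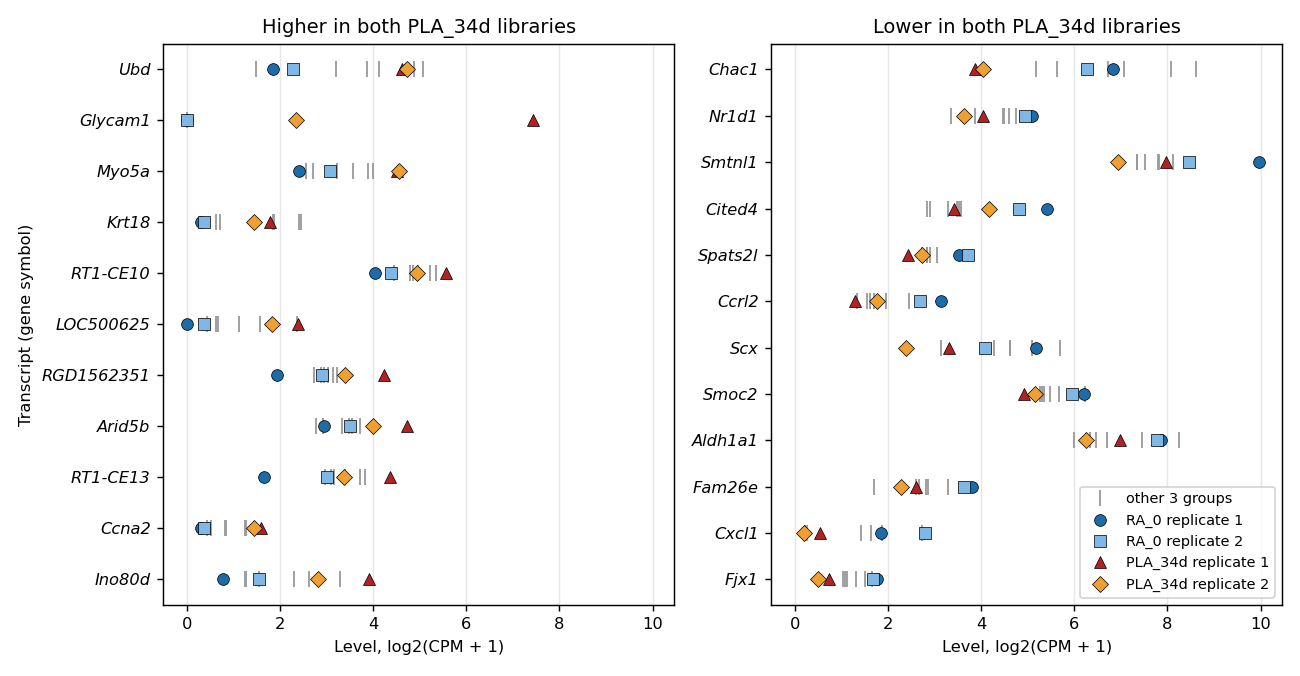
Level in log2(CPM + 1) on the x axis of the transcripts named here among the 12 in each direction that met the study's rule without overlap at the lowest unadjusted p, with a symbol for each RA_0 and PLA_34d library and grey ticks for the 6 libraries of the other 3 groups. Replicates of PLA_34d lie close for *Ubd*, *Myo5a* and *Chac1* and far apart for *Glycam1*.

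Of the 37 members that were higher by at least 1 log2 unit in both libraries, those named in this paragraph were picked after their values had been seen. *Prkaa2*, the alpha 2 catalytic subunit of the energy sensor AMPK, stood at 56.8 and 34.5 CPM in RA_0 and at 151 and 165 CPM in PLA_34d. *Rock2*, a kinase that acts downstream of RhoA on actin and myosin, stood at 32.7 and 27 CPM against 79.1 and 76.3 CPM. *Lifr*, the receptor chain for leukaemia inhibitory factor, stood at 8.35 and 7.72 CPM against 38 and 25.7 CPM. For each of these the replicates lay closer together than the groups, which the choice by a gap of at least 1 log2 unit favoured. The SE, which comes from the spread within all 5 groups, was large beside the difference. The differences were 1.81 ± 0.83 for *Prkaa2*, 1.36 ± 0.72 for *Rock2* and 1.84 ± 0.66 for *Lifr*. The other libraries spanned 29.3 to 240 CPM, 24.6 to 119 CPM and 5.47 to 32.9 CPM for these 3. Likewise *Nfib*, a transcription factor, stood at 5.25 and 8.32 CPM against 29.1 and 21.2 CPM. Only 3 of the 37 also lay above all 8 other libraries. Their median genomic span was 37528 bases, beside 19112 bases over all members.

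*Chac1* led the members that were lower. It encodes an enzyme that breaks down glutathione, and it is a well known target of the transcription factor ATF4 in the integrated stress response. *Chac1* (NM_001173437, rn4 chr3:105870108-105873318, plus strand) stood at 113 and 76.5 CPM in RA_0 and at 13.6 and 15.5 CPM in PLA_34d. The PLA_34d levels lay 6.98-fold and 6.12-fold below the RA_0 mean, and below every other library of the series, which spanned 35.4 to 392 CPM. Its difference was -2.60 ± 0.56, with an unadjusted p of 0.000902 and an adjusted p of 0.914 in limma, and with an adjusted p of 0.00655 in DESeq2.

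Other genes of the integrated stress response went both ways. Of 19 members of that list, *Chac1* included, 2 were higher and 5 lower in both libraries, beside 17% and 14.4% over all members. The median difference of the list was -0.04 (-0.14 in replicate 1 and 0.15 in replicate 2), beside -0.02 over all members. *Nupr1*, a stress-induced chromatin protein, stood at 13.4 and 16.8 CPM in RA_0 and 8.08 and 7.25 CPM in PLA_34d, and *Stc2*, a secreted glycoprotein, at 6.68 and 4.46 CPM against 2.8 and 3.55 CPM. The ATF4 targets *Mthfd2*, of mitochondrial one-carbon metabolism, and *Asns*, asparagine synthetase, were higher in PLA_34d instead. *Mthfd2* stood at 0.239 and 0.743 CPM against 12.3 and 1.28 CPM, and *Asns* at 0.954 and 1.34 CPM against 6.17 and 1.56 CPM, so that most of their difference lay in replicate 1. Both passed the filter through PLA_34d alone, which favoured a higher level there. *Ddit3* and *Trib3*, which act in the same response, were too low to be members, at 0.446 to 0.954 CPM and 0.446 to 0.477 CPM in RA_0 (for *Ddit3*, the transcript with reads).

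For the genes whose levels move with the stress response and the clock, the 250 bases before the start site are shown for *Chac1* and *Arntl*, since both hold letters that a factor named here is known to bind. They come from RefSeq's rat assembly GRCr8, plus strand in both cases, at chr3:126795881-126796130 for *Chac1* and chr1:176766078-176766327 for *Arntl*, which the assembly names *Bmal1*. Capitals mark the matches. In *Chac1* these are TGACG, a half-site of the cyclic AMP response element, from base -224 to -220 before the start, and TTGCATCA from -167 to -160, the reverse complement of the C/EBP-ATF composite letters TGATGNAA that ATF4 binds. In *Arntl* the capitals mark AGGTCA from -15 to -10, the nuclear receptor half-site that REV-ERBα binds.
Chac1: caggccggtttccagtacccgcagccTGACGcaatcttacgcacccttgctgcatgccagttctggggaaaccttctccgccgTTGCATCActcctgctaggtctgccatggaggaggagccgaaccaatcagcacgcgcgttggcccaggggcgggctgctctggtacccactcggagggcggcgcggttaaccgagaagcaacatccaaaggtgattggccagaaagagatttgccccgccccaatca
Arntl: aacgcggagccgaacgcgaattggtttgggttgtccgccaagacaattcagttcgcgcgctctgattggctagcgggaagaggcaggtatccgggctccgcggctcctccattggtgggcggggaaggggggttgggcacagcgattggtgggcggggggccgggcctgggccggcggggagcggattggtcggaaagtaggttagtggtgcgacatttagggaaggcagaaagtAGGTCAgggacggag
On either strand of 33465 such windows, TGACG stood in 18.2%, TGATGNAA in 3.4% and AGGTCA in 14.1%, with overlaps between motifs allowed. The *Nr1d1* window, taken at the upstream of 2 listed starts, held neither AGGTCA nor the E-box CACGTG (5.59% of windows), and the *Ubd* window held neither the interferon-related letters GAAANNGAA (8.12%) nor TTCNNNGAA (7.67%). A match is a description of the letters and not a site in use.

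Among clock genes, *Nr1d1* and *Dbp* were lower and *Arntl* and *Clock* higher in both PLA_34d libraries. *Nr1d1* (NM_001113422, rn4 chr10:87541246-87548186, minus strand), which overlaps *Thra*, stood at 33.2 and 29.6 CPM in RA_0 and at 15.6 and 11.4 CPM in PLA_34d, a difference of -1.17 ± 0.31 with an unadjusted p of 0.00384 in limma. *Dbp*, a clock output factor that peaks near *Nr1d1*, stood at 426 and 418 CPM against 249 and 295 CPM. *Arntl* stood at 2.62 and 3.86 CPM against 7.07 and 5.69 CPM, and *Clock* at 4.53 and 2.38 CPM against 9.87 and 8.1 CPM. None of these 4 overlapped between the groups. *Per3*, which belongs with *Dbp*, was higher in PLA_34d, at 27.7 and 61.5 CPM against 67.9 and 69.7 CPM, and *Per1*, *Cry1* and *Cry2* overlapped. The other 6 libraries held 14.2 to 24.9 CPM of *Arntl* and 58.6 to 181 CPM of *Dbp*, so that PLA_34d lay between RA_0 and the rest for both. For *Nr1d1* they held 9.24 to 25.8 CPM, so that PLA_34d lay inside their range and RA_0 above it. For *Clock* they held 3.57 to 20.2 CPM, a range that also held PLA_34d. Of the 5 members of the *Arntl* phase list 2 were higher in both and 0 lower in both, and of the 9 members of the *Dbp* phase list 1 was higher and 2 were lower in both. Over all members 17% were higher and 14.4% lower in both. The hour at which each animal was killed is not given in the sources used here.

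Part of the immediate early genes, which respond within minutes to growth factors, stress and mechanical stimuli, lay lower. Of 26 members, 7 were lower in both PLA_34d libraries and 0 were higher in both, beside 14.4% lower and 17% higher over all members. The median difference was -0.43 (-0.23 in replicate 1 and -0.76 in replicate 2), and between -0.46 and -0.26 under other scalings and filters. *Egr1*, a zinc finger transcription factor, stood at 63.5 and 222 CPM in RA_0 and at 30 and 6.82 CPM in PLA_34d, a difference of -2.94 ± 1.08 with an unadjusted p of 0.0212 in limma. *Ier2*, a nuclear early response protein, stood at 50.6 and 80.2 CPM against 33.2 and 17.3 CPM. *Dusp1*, the phosphatase that ends MAP kinase signalling, stood at 225 and 490 CPM against 197 and 119 CPM, *Junb* at 53.7 and 176 CPM against 45.2 and 31.4 CPM, and *Arc* at 16.7 and 33.6 CPM against 8.64 and 9.38 CPM. *Fos* overlapped, at 21.7 and 123 CPM against 44.4 and 8.1 CPM. In all 6 of these genes RA_0 replicate 2 was the highest of the 4 libraries, and without it the median of the list was 0.03.

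Part of the tendon and matrix list was lower, more so in replicate 2. Of 20 members, 3 met the study's rule as lower (0.452% over all members), 7 were lower in both libraries (14.4%) and 0 higher in both (17%), with a median difference of -0.62 (-0.21 in replicate 1 and -1.01 in replicate 2). *Scx* (NM_001130508, rn4 chr7:114504701-114506719, plus strand), the transcription factor of tendon cells, stood at 35.5 and 16 CPM in RA_0 and at 8.97 and 4.26 CPM in PLA_34d, a difference of -1.78 ± 0.55. *Scx* overlaps *Bop1*, and without a statement on strand in the counting its reads are uncertain. *Igfbp6*, a binding protein for insulin-like growth factor 2, stood at 64.4 and 70.7 CPM against 30.3 and 26.6 CPM. *Smoc2*, a calcium-binding matrix protein, stood at 73.2 and 61.3 CPM against 29.2 and 35 CPM, below the 37.4 to 74.7 CPM of the other libraries. *Mfap5*, a protein of elastic microfibrils, stood at 23.4 and 14 CPM against 8.3 and 8.24 CPM. Replicates of PLA_34d lay close together for the last 3 of these genes.

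Of 13 collagen members 6 were lower in both libraries and 0 higher in both, beside 14.4% and 17% over all members, with a median difference of -0.56 (-0.60 to -0.38 under other scalings and filters). *Col6a2*, of the microfibrils around muscle fibres, stood at 137 and 124 CPM in RA_0 and at 77.4 and 73.3 CPM in PLA_34d. *Col3a1*, a fibrillar collagen, stood at 403 and 537 CPM against 328 and 245 CPM, and *Col4a1*, of basement membranes, at 193 and 177 CPM against 122 and 129 CPM. The RA_0 replicates were unlike each other in this tissue, with 1362 and 3261 CPM summed over the list, against 1716 and 852 CPM in PLA_34d. Without RA_0 replicate 2 the collagen median was 0.08, and the tendon and matrix median was -0.16.

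Further members lower in both libraries came from muscle, signalling and chemotaxis. *Smtnl1*, a smoothelin-like regulator of contraction, stood at 1003 and 353 CPM in RA_0 and at 249 and 122 CPM in PLA_34d, a difference of -1.77 ± 0.50, with an adjusted p of 0.0481 in DESeq2 and 0.914 in limma. RA_0 itself was the high group here, since the other 6 libraries lay between 161 and 278 CPM. *Cited4*, a coactivator that binds CBP and p300, likewise stood at 42 and 27.2 CPM in RA_0, at 9.76 and 17.1 CPM in PLA_34d and at 6.12 to 10.9 CPM elsewhere. *Aldh1a1*, which makes retinoic acid from retinal, stood at 231 and 217 CPM against 126 and 75.1 CPM. *Cxcl1*, a chemokine that draws neutrophils, stood at 2.62 and 5.94 CPM against 0.449 and 0.142 CPM, and *Ccrl2*, a receptor that binds chemerin, at 7.87 and 5.5 CPM against 1.46 and 2.42 CPM. The 3 neutrophil members passed the filter through RA_0 alone, so that a lower level in PLA_34d was favoured by the filter. They were *S100a9* at 4.53 and 4.16 CPM against 0.561 and 1.71 CPM, *S100a8* at 1.67 and 1.34 CPM against 0.224 and 0.569 CPM, and *Lcn2* at 2.39 and 1.49 CPM against 0.337 and 0 CPM. Several of these values rest on a few reads. *Spats2l* (10.5 and 12.2 CPM against 4.37 and 5.69 CPM), *Fam26e* (12.9 and 11.4 CPM against 5.05 and 3.84 CPM) and *Fjx1* (2.39 and 2.23 CPM against 0.673 and 0.426 CPM) completed the 12. *Cxcl1* and *Fjx1* also passed the filter through RA_0 alone. RA_0 lay above the other 6 libraries for *Ccrl2* (1.54 to 4.49 CPM there), *Spats2l* (5.62 to 7.35 CPM), *Fam26e* (2.27 to 8.77 CPM) and *Fjx1* (1.05 to 2.15 CPM) as well. It did not for *Aldh1a1* (62.7 to 303 CPM) and *Cxcl1* (0.175 to 5.62 CPM).

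The lists of ribosomal and heat shock genes had medians below 0, which lay nearer 0 without RA_0 replicate 1. Of 82 members for cytosolic ribosomal proteins, 32 were lower in both PLA_34d libraries and 0 higher in both, beside 14.4% lower and 17% higher over all members, with a median difference of -0.55 (-0.61 in replicate 1 and -0.46 in replicate 2). *Rpl22* stood at 78.3 and 50.3 CPM in RA_0 and at 36.3 and 41.1 CPM in PLA_34d. The sum over the list was 23301 and 12859 CPM against 11592 and 12658 CPM, and 10041 to 18652 CPM elsewhere, so that RA_0 replicate 1 was the library that stood out. Without it the median was -0.12. Of 15 heat shock members 6 were lower in both and 0 higher, with a median of -0.30 (-0.33 to -0.05 under other scalings and filters, and -0.09 without RA_0 replicate 1). *Hspb1*, a small heat shock protein abundant in muscle, stood at 467 and 342 CPM against 195 and 250 CPM.

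Glucocorticoid targets, which respond to the stress hormone, gave no common direction, with 3 of 13 members higher in both libraries and 3 lower in both. The shares over all members were 17% and 14.4%. *Fkbp5*, a cochaperone of the receptor, stood at 21.5 and 21.7 CPM in RA_0 and at 36.9 and 40.9 CPM in PLA_34d, while *Tsc22d3*, another direct target, stood at 292 and 307 CPM against 209 and 223 CPM. Both differences were larger than the gap between replicates. The other 6 libraries lay at 68.3 to 239 CPM for *Fkbp5* and 338 to 864 CPM for *Tsc22d3*, above all 4 libraries compared.

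PLA_34d replicate 1 held high levels of genes of lymphoid tissue. Of the 763 members at least 1 log2 unit above RA_0 in this library, 726 were not so in replicate 2. In 6 lists of lymphoid and MHC class II genes, 27 of 30 members lay as far above RA_0, beside 7.66% of all members. The filter favoured a higher PLA_34d level for those that passed it through PLA_34d alone. These were 3 of 5 lymph node, 3 of 5 B cell, 1 of 2 plasma cell, 3 of 5 T cell, 4 of 4 cytotoxic and 0 of 9 class II members. *Ms4a1*, which encodes the B cell antigen CD20, stood at 0.239 and 0.297 CPM in RA_0 and at 50.8 and 1.14 CPM in PLA_34d, and *Lck*, the kinase of the T cell receptor, at 0.477 and 0.446 CPM against 49.2 and 1.56 CPM. *Il7r* (0.716 and 0.891 CPM against 69 and 1.14 CPM), *Il21r* (0.477 and 0.743 CPM against 75.8 and 2.27 CPM), both cytokine receptors of lymphocytes, and *Coro1a*, an actin regulator of leukocytes (1.91 and 4.6 CPM against 178 and 5.69 CPM), were likewise among the 6 farthest above RA_0 of the members whose replicate 2 lay less than 1 log2 unit above it.

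Several defining genes were not members at all, because a single library carried them. *Cr2*, the complement receptor of B cells and follicular dendritic cells, had no read in RA_0 and stood at 91.4 and 0.711 CPM in PLA_34d. *Cd79b* stood at 0 and 0.594 CPM against 72 and 0.853 CPM, and *Cd3e* at 0.239 and 0.297 CPM against 36.3 and 0.284 CPM. In replicate 2 these markers lay at a few reads. The chemokines that place lymphocytes in a node were high in replicate 1 as well, with *Cxcl13* at 0.477 and 2.38 CPM against 58 and 2.7 CPM and *Ccl21* at 29.8 and 38.5 CPM against 314 and 27 CPM. Summed over genes of lymph node vessels and follicles, the level was 42 and 45.3 CPM in RA_0, and 804 and 45.1 CPM in PLA_34d, with 26.1 to 74.2 CPM in the other 6 libraries.

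Antigen presentation by class II molecules went with the lymphoid genes. All 9 class II members lay at least 1 log2 unit above RA_0 in replicate 1 and none did in replicate 2. Over all members the shares were 7.66% and 0.702%, and the class II medians were 2.59 and -0.23. *Cd74*, the invariant chain, stood at 126 and 100 CPM in RA_0 and at 680 and 95.2 CPM in PLA_34d, and *RT1-Da*, a class II chain, at 45.6 and 35.8 CPM against 272 and 34.5 CPM. *Ciita*, the class II transactivator, stood at 1.19 CPM in both RA_0 libraries against 38.3 and 1.42 CPM. *RT1-DOa*, a chain of the class II modulator DO, was the only class II member to meet the study's rule, at 1.19 and 1.04 CPM against 17.9 and 2.84 CPM. Of 15 macrophage members 6 were as high in replicate 1 and 0 in replicate 2, with *Siglec1*, a receptor of lymph node and tissue macrophages, at 1.67 and 1.93 CPM against 72.1 and 1.99 CPM. *Cd68* stood at 3.58 and 5.35 CPM against 15.9 and 2.84 CPM. The macrophage sum of replicate 1, 474 CPM, lay inside the 175 to 895 CPM of the other 6 libraries, whereas its lymph node, B cell, T cell and class II sums lay above all of them.

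Of the 192 members higher by the study's rule, 11 belonged to the 6 lists of lymphoid and class II genes, and the part of lymphoid RNA in the remaining 181 was not tested. Of DESeq2's 38 calls, 35 were higher and 3 lower, and 33 were members, of which 27 did not overlap between the groups. Over all members 17% were higher and 14.4% lower without overlap, and a call for a difference between the same libraries favours such separation. In 34 of the 35 higher calls replicate 2 lay less than 1 log2 unit above RA_0. They included *Ptpn6*, a phosphatase of blood cells (0.954 and 3.27 CPM against 46.9 and 3.98 CPM), and *Irf8*, a factor of B cells and macrophages (0.477 and 0.891 CPM against 36.5 and 1.14 CPM). The lower calls were *Chac1*, *Smtnl1* and *Tppp3*, a tubulin-binding protein seen in tendon cells, which is named here after its values had been seen and stood at 321 and 28.4 CPM in RA_0 and at 20.6 and 19.8 CPM in PLA_34d, so that RA_0 replicate 1 made most of that difference.

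**Figure D3:**
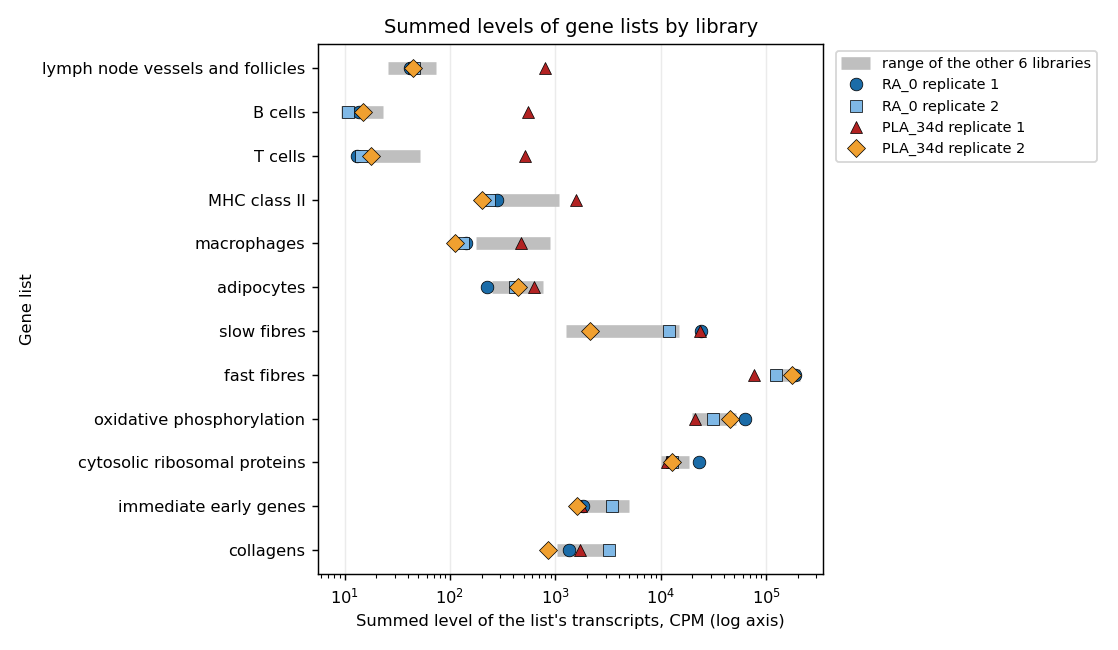
Summed level in CPM, on a log axis, of 12 gene lists in each RA_0 and PLA_34d library, with a grey bar for the range of the other 6 libraries. PLA_34d replicate 1 stands alone at the right for lymph node, B cell, T cell and class II genes, and PLA_34d replicate 2 stands apart at the left for slow fibre genes, within the range of the other 6 libraries.

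Muscle fibre genes split the PLA_34d libraries in opposite ways. Of 15 slow fibre members, 13 lay at least 1 log2 unit below RA_0 in replicate 2 and 0 did in replicate 1. Over all members the shares were 1.06% and 1.04%, and the medians of the list, in the same order, were -3.07 and 0.33. *Myh7*, the slow myosin heavy chain, stood at 7398 and 4565 CPM in RA_0, and at 11934 and 499 CPM in PLA_34d, and it overlaps *Mir208b*. *Tnni1*, the slow troponin I, stood at 1472 and 828 CPM against 1098 and 107 CPM, and *Tnnt1*, the slow troponin T, at 1874 and 1015 CPM against 1736 and 129 CPM. *Myl2*, a regulatory light chain of slow and cardiac muscle, stood at 2232 and 873 CPM against 1125 and 127 CPM. Summed over the list, the level was 24104 and 11955 CPM in RA_0 and 23678 and 2153 CPM in PLA_34d in a series whose other 6 libraries spanned 1250 to 14789 CPM. *Myh6*, a neighbour of *Myh7* that makes the alpha heavy chain, differed alike, at 1952 and 1113 CPM against 2573 and 121 CPM.

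Fast fibre genes were low in replicate 1 instead. Of 14 members, 5 lay at least 1 log2 unit below RA_0 in replicate 1 and 0 did in replicate 2. The shares over all members were 1.04% and 1.06%, and the medians of the list were -1.26 and 0.10. *Tnni2*, the fast troponin I, stood at 19389 and 8870 CPM in RA_0 and at 3979 and 11325 CPM in PLA_34d, and *Tnnt3*, the fast troponin T, at 20423 and 11101 CPM against 5364 and 15418 CPM. *Myh2*, the heavy chain of fast oxidative fibres, stood at 11133 and 11502 CPM against 8670 and 11884 CPM. The sum of the list was 76960 CPM in PLA_34d replicate 1, below the 107683 to 211727 CPM of the other 6 libraries, and 175246 CPM in replicate 2. Genes of oxidative phosphorylation followed the fast list, with medians of -1.15 and 0.01 over 76 members and sums of 62567 and 31462 CPM in RA_0 against 21070 and 45612 CPM. The other 6 libraries spanned 19814 to 51373 CPM, a range that held both PLA_34d sums but not that of RA_0 replicate 1. The median of the group difference for this list was -0.57, and -0.04 without RA_0 replicate 1. Neither fibre list had a member that was higher or lower in both PLA_34d libraries. The study describes dorsal subcutaneous tissue with its muscle, and stimulated points beside the lumbar spine and between tibia and fibula. Which point and which muscle each piece came from is not given in the sources used here.

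Replicate 1 was low in 2 further kinds of transcript. Both transcripts of the ribosomal RNA precursor *Rn45s* stood low, the first at 4487 and 2387 CPM in RA_0 against 511 and 1460 CPM and the second at 9868 and 5568 CPM against 1298 and 3713 CPM. *Prima1*, the membrane anchor of acetylcholinesterase, stood at 18.1 and 20.9 CPM against 3.93 and 12.2 CPM. Fat genes were uneven in both groups. *Adipoq*, the adipocyte hormone adiponectin, stood at 1.67 and 21.1 CPM in RA_0 and at 73 and 20 CPM in PLA_34d, and *Lep*, which encodes leptin, at 0 and 2.08 CPM against 10.3 and 1.85 CPM. *Cidea*, of the same list, was lower in both libraries, at 19.6 and 7.72 CPM against 5.83 and 4.98 CPM. Over 10 adipocyte members the median difference was 1.13, and 0.15 without RA_0 replicate 1. Of these 10, 1 was higher and 1 lower in both libraries, beside 17% and 14.4% over all members. The sum over the list was 622 CPM in PLA_34d replicate 1, inside the 250 to 772 CPM of the other 6 libraries.

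Replicate 2 was high in a few genes that replicate 1 shared only in part. *Anxa8*, a membrane-binding annexin, stood at 0.239 and 0.743 CPM in RA_0, and at 1.35 and 12.4 CPM in PLA_34d. *Cdkn1a*, the cell cycle inhibitor p21, stood at 20.3 and 81.4 CPM against 77.1 and 277 CPM, with 243 to 462 CPM in the other libraries, and its groups overlapped. *Mical2*, an oxidase that acts on actin, stood at 21.5 and 12.5 CPM against 16.9 and 73.1 CPM. *Parm1* (1.19 and 2.67 CPM against 5.05 and 11.9 CPM), *Uhrf1*, which maintains DNA methylation (0.954 and 1.04 CPM against 3.03 and 5.83 CPM), and *Sncg*, a synuclein (7.63 and 27.6 CPM against 36.5 and 92.3 CPM), were higher in both libraries and most so in replicate 2.

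Lists for other cell types and states gave the following counts, to be read beside 17% of all members higher and 14.4% lower in both libraries. Of 15 endothelial members 2 were higher and 3 lower in both libraries, with *Pecam1*, an adhesion molecule of endothelium, at 40.8 and 41.6 CPM against 42.2 and 35.3 CPM, and *Flt1*, a receptor for vascular endothelial growth factor, at 31.7 and 28.5 CPM against 45.2 and 49.2 CPM. Of 9 Schwann cell members 0 were higher and 1 was lower in both, and of 4 red blood cell members none was either, with medians of -0.31 and -0.45. Of 5 members for lymphatic vessels none was either, with medians of 1.11 in replicate 1 and -0.34 in replicate 2. For genes of fuel use, with a median of -0.60 in replicate 1 and 0.01 in replicate 2, 4 of 23 members were higher in both and 2 lower, among them *Ppargc1a*, the coactivator of mitochondrial genes, at 21.9 and 15.7 CPM against 26.1 and 29 CPM. The atrophy list had 2 of 17 higher and 3 lower, with *Foxo1*, the factor that drives muscle wasting genes, at 8.59 and 10.5 CPM against 39.4 and 13.6 CPM. Denervation and synapse genes had 1 of 15 higher and 3 lower, including *Myh3*, the embryonic heavy chain, at 259 and 291 CPM against 160 and 188 CPM.

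**Figure D4:**
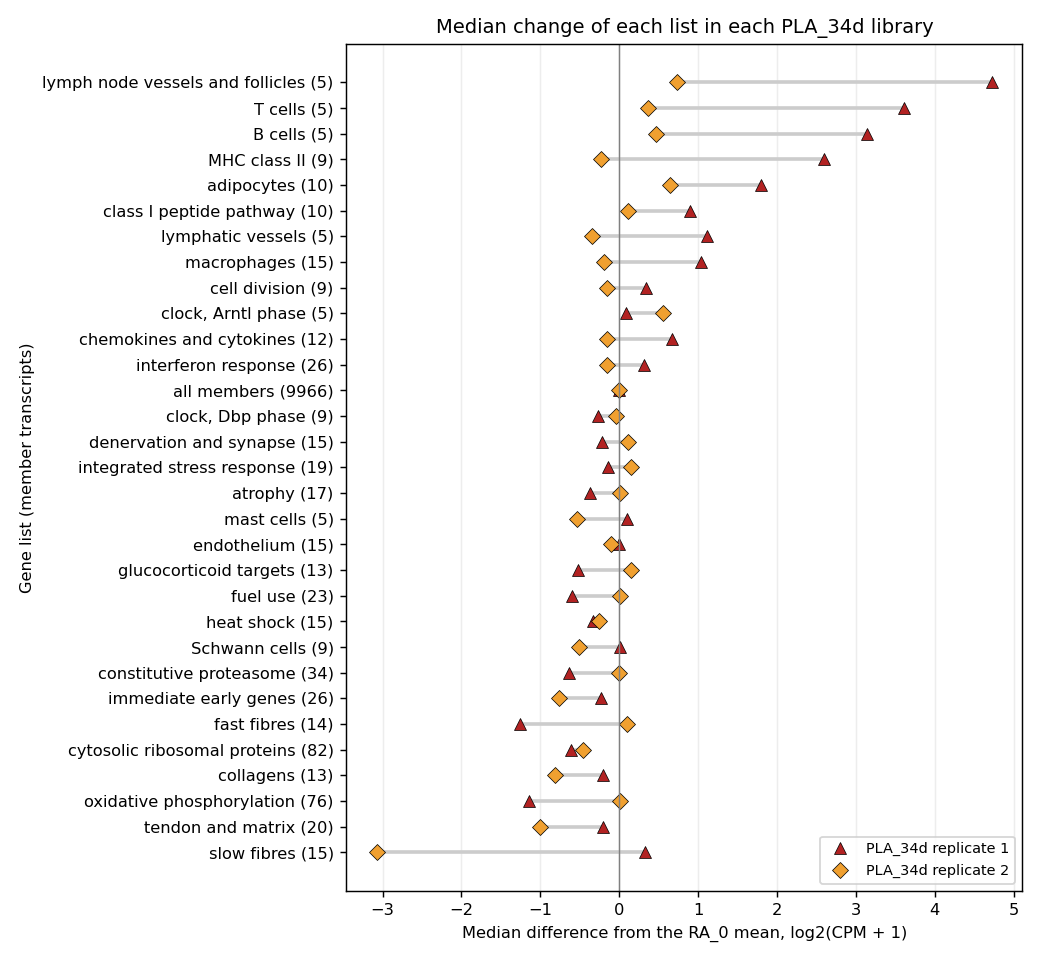
Median difference from the RA_0 mean, in log2(CPM + 1), of each gene list with at least 5 members, with triangles for PLA_34d replicate 1 and diamonds for replicate 2, ordered by the median of the group difference. The libraries lie far apart for lymphoid, class II and slow fibre lists, and close together for ribosomal and heat shock genes, whose medians are below 0.

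The gene sets that the study used for wound healing, inflammation and mechanical stimulation held members on both sides. Over all members, 17% were higher and 14.4% lower in both libraries, and 1.93% were higher and 0.452% lower by the study's rule. The inflammation set InflGO had 254 members, of which 5 were higher and 2 lower by the study's rule, and 40 were higher and 39 lower in both libraries. In replicate 1, 44 of them lay at least 1 log2 unit above RA_0 (7.66% over all members), and in replicate 2 only 1 did (0.702%). Its median difference was 0.07 (0.22 in replicate 1 and -0.09 in replicate 2). The wound healing set whGO had 218 members, of which 6 were higher and 0 lower by the study's rule and 30 were higher and 38 lower in both libraries, with a median of 0.01. The set of early healing, Heal E., had 14 of 66 members higher and 13 lower in both libraries, and that of early mechanical response, Mec. E., had 3 of 36 higher and 6 lower.

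Some members of these sets differed by more than the gap between replicates. *S100a6*, a calcium-binding protein of the early healing set, stood at 72 and 73.1 CPM in RA_0 and at 37.4 and 38.9 CPM in PLA_34d, below the 46.3 to 87.7 CPM of the other libraries, a difference of -0.91 ± 0.33 with an unadjusted p of 0.0191 in limma. *Anxa5*, an annexin of the wound healing set that binds phosphatidylserine, stood at 50.3 and 45.2 CPM against 27.7 and 24 CPM. *Metrnl*, a secreted factor of the inflammation set made by muscle and fat, stood at 8.35 and 9.95 CPM against 4.37 and 4.55 CPM, below the 7.14 to 11.7 CPM of the other libraries. Higher in PLA_34d were *Prkcz*, an atypical protein kinase C (2.39 and 1.93 CPM against 4.37 and 5.4 CPM), and *P2rx4*, an ATP-gated channel (2.62 and 6.39 CPM against 14 and 8.96 CPM).

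The differences varied with the level and the genomic span of a transcript, in replicate 1 and hardly in replicate 2. Over 5 equal bins of the members by mean level, the median difference of replicate 1 ran from 0.31 in the lowest bin to -0.40 in the highest, and that of replicate 2 from 0.02 to -0.01. Over 5 bins by span it ran from -0.29 for transcripts of 84 to 6128 bases to 0.29 for those of 55318 to 1505724 bases in replicate 1, and from -0.08 to 0.07 in replicate 2. The RA_0 replicates differed from each other in the same sense, with medians of replicate 2 minus replicate 1 from 0.21 to -0.29 by level and from -0.17 to 0.17 by span. Of the 192 members higher by the study's rule, 70 lay in the bin of longest span and 79 in the bin of lowest level. Their median span was 31736 bases and their median level 8.59 CPM, beside 8004 bases and 14.9 CPM for the 45 lower members and 19112 bases and 20.3 CPM over all members. The part of span and level in the named results was not tested.

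**Figure D5:**
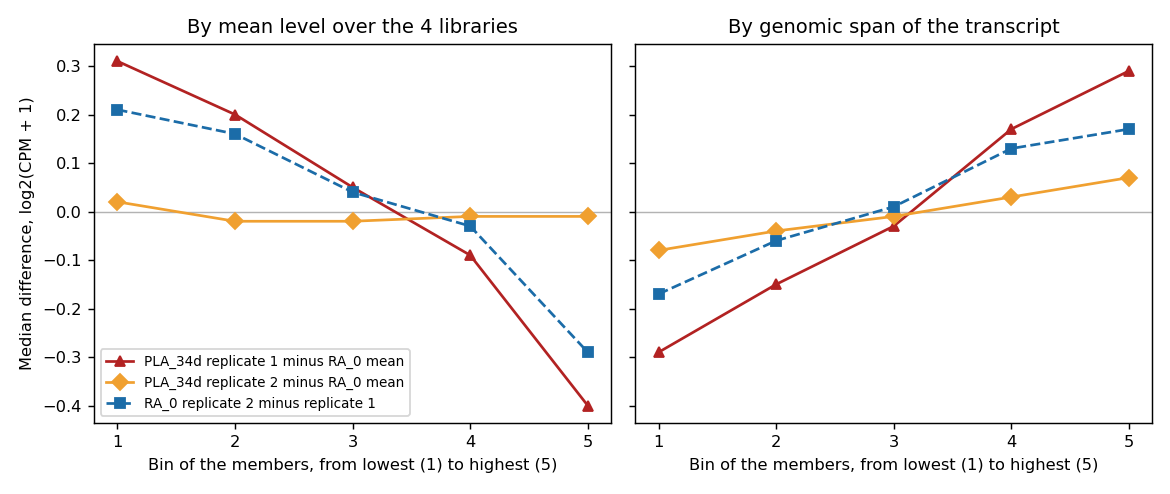
Median difference in log2(CPM + 1) over 5 equal bins of the 9966 members, ordered by mean level in the left panel and by genomic span in the right, for PLA_34d replicates 1 and 2 against the RA_0 mean and for RA_0 replicate 2 minus replicate 1 (dashed). The line of PLA_34d replicate 1 falls from 0.31 to -0.40 with level and rises from -0.29 to 0.29 with span, the RA_0 line slopes the same way, and that of PLA_34d replicate 2 stays near 0.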

How the data were processed

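Sub-epidermal muscle of RA_0 and PLA_34d rats was compared, with 2 libraries a group. Per the submitters' processing notes, reads passed through CASAVA 1.8.2, cutadapt 1.2.1, Bowtie2 2.1.0 on rn4, HTSeq 0.5.4p3 and edgeR 3.4.2. HTSeq drops ambiguous reads, and whether strand was used in counting is not stated, so the 750 members that overlap another symbol are uncertain. For each transcript and library the authors deposited a signal, read counts scaled to CPM with TMM factors. They were whole multiples of 1 read within 0.01 reads for 100% of values, so the counts behind the deposited signal were recovered. Limits given for a count of 0 cover counting error only. Starts in the table count from 0 and are given here from 1. Gene models give genomic span, not transcript length.

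Values were fitted as log2(CPM + 1), a scale that understates the differences of low transcripts, with limma 3.58.1 (R 4.3.3) over all 10 libraries, 1 mean per group, eBayes with a mean trend, on the 10259 transcripts for which any group had both libraries at 1 CPM or more. p-values were adjusted over all of them. The study's rule (unadjusted p under 0.05, at least 2-fold, mean of at least 1 CPM) was applied to the same fit. Limma-voom, edgeR 4.0.16 and DESeq2 1.42.0 were run on the recovered counts. Other alternatives were pseudocounts of 0.25 and 4, other filters and scalings, a replicate block and each library left out. With 2 against 2 an exact permutation test cannot go below p = 0.333, so none is given. The fit was tested on simulated data. Python 3.11.15, pandas 2.3.3 and matplotlib 3.10.9 were used for counts and plots.

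Named are the members that met the study's rule without overlap, up to 12 per direction by unadjusted p. Added to these are, for each PLA_34d library, up to 6 members farthest above RA_0 and 4 farthest below while the other library lay within 1 log2 unit, and, per gene list, up to 5 members with the smallest p and its defining genes. Members, the 40 gene lists and the naming rule were chosen with earlier results of these data known. The study's gene sets are those its supplement lists. Promoter windows for 4 genes were matched by symbol to RefSeq (GRCr8) and searched on both strands. Some items that the rule names are not reported here.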

Additional observations from a re-analysis of the deposited data

How the results depend on the processing

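Adjusted calls stayed at 0 in 14 of 15 alternative fits of all 4 libraries and numbered 38 in DESeq2. With single libraries of the series left out they ranged from 0 to 161, the 161 coming without PLA_34d replicate 2. All 161 were higher, and of the 131 that were members 129 lay less than 1 log2 unit above RA_0 in replicate 2. The count of 237 by the study's rule became 102 with a pseudocount of 4, 128 with a mean of at least 5 CPM, 156 in limma-voom (103 higher, 53 lower), 398 in edgeR's quasi-likelihood test and 465 in DESeq2 (378 higher, 87 lower), and ranged from 89 to 963 with a library left out (89 without RA_0 replicate 1, 523 without RA_0 replicate 2, 139 without PLA_34d replicate 1, 963 without PLA_34d replicate 2). The 44 members apart by at least 1 log2 unit became 85 with a pseudocount of 0.25 and 16 with 4, and 125 to 555 without an RA_0 library. The 3132 members without overlap became 5111 to 7439 in that case. Of members at least 1 log2 unit beyond RA_0, the 867 of replicate 1 became 557 with a pseudocount of 4 and 1132 to 2828 without an RA_0 library. The 176 of replicate 2 became 285 with a pseudocount of 0.25, 65 with 4, 114 with a mean of at least 5 CPM and 469 to 854 without an RA_0 library. The cause of these shifts was not tested, other than that fewer samples make a smaller span to clear. Leaving out the 20 most abundant transcripts moved the median of all members to 0.15, so list medians there are to be read against that shift. The 24 transcripts named by the study's rule kept their direction under every alternative run, as did 172 of the 210 named transcripts that were tested. The 24 had been chosen for groups that did not overlap in these same libraries. Leaving out a library could therefore not reverse them, and their kept direction is no separate support.

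Replicate numbers did not pair the samples. Deviations of same-numbered libraries from their group means correlated with r between -0.464 and 0.446 over 10 pairs of groups, and with r = -0.319 for RA_0 with PLA_34d. With a replicate block the fit made 0 adjusted calls and 269 members met the study's rule (217 higher, 52 lower). A crossed pairing, chosen after the data had been seen, gave 0 and 410 (332 higher, 78 lower). Leaving out the members of the lymphoid and class II lists, also chosen then, left 226 (181 higher, 45 lower).

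With 2 libraries a group and 5371687 to 7364001 counted reads, transcripts near 1 CPM rest on 4.19 to 8.91 reads, so that differences of a few reads were not detectable at this depth. The spread of the fit comes from all 5 groups, and a library left out leaves a lone sample that is assumed to vary like them.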
